A study of Bos taurus with 138 samples.

Results

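The mRNAs of 10 genes of the trophectoderm, the outer epithelium of the blastocyst, were followed in bovine oocytes and embryos. They are the transcription factors CDX2, GATA2, GATA3, TFAP2A, TFAP2C and ELF3, the keratins KRT8 and KRT18, the endocytic adaptor DAB2 and the prostaglandin synthase PTGS2. The 10 genes were chosen by name from the 16706 gene symbols of the count table, and all 10 passed the filter on low counts. The material was germinal vesicle (GV) and metaphase II (MII) oocytes and 2-cell, 8-cell, morula and blastocyst embryos of Bos taurus. GV oocytes came from slaughterhouse ovaries, MII oocytes had matured in vitro, and embryos came from fertilisation in vitro with semen of 1 Holstein bull. Material of every stage had cumulus cells and zona pellucida removed and was treated with cycloheximide, which holds ribosomes on mRNA. Lysate from pooled oocytes or embryos was separated on 2 sucrose gradients per stage, A and B, each collected as 10 fractions, and 3 transcriptomes per stage, A, B and C, came from further pools of the same batches. Fractions F1-F2 held free RNA, F3-F5 monosomes, F6-F7 an intermediate class and F8-F10 polysomes, as the study assigned them, and the counts of each class were summed within a gradient into 1 pool.

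The trophectoderm is the lineage that later forms the embryo's part of the placenta, and it separates from the inner cell mass between morula and blastocyst. CDX2, the GATA factors and the AP-2 factors TFAP2A and TFAP2C bind DNA and are known for switching on trophoblast genes, while ELF3 is an ETS factor of epithelial cells. KRT8 and KRT18 pair to form the intermediate filaments of simple epithelia, DAB2 sorts receptors into clathrin-coated vesicles, and PTGS2 catalyses the committed step from arachidonic acid to prostaglandins. An mRNA held by several ribosomes sediments into the heavy fractions, so its level there is read as a measure of how much of it sits on polysomes.

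Levels are CPM, the counts of a gene scaled to a common library total with TMM (trimmed mean of M-values) factors, and each is a share of a library and not a number of molecules per embryo. No level is compared between genes, since the values are not divided by transcript length. Library totals lay between 1229382 and 17342859 expected counts with a median of 10339169. Transcriptomes held 3269386 to 11812567 counts, with the blastocyst transcriptomes lowest at 3269386 to 5256282, and polysome pools held 22543737 to 39380638. Replicates came from pools and not from single embryos, so p-values measure the spread between these libraries. Whole embryos were lysed, so fewer trophectoderm cells and less RNA per cell cannot be told apart. The inner cell mass gene POU5F1 stood at 133 to 148 CPM in blastocyst transcriptomes and the hypoblast gene GATA6 at 8.80 to 12.4 CPM, and POU5F1 stood at 301 to 431 CPM in morulae, so that its level is not a measure of the inner cell mass alone.

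From GV oocyte to blastocyst, 9 of the 10 mRNAs rose in the transcriptome and none fell, beside 27.8% of all genes that rose and 56.4% that changed. The median log2 change of the 10 genes was 5.37, and that of all 14612 genes tested was 0.00. On polysomes 7 of 10 changed, beside 54.8% of all genes, with GATA3, TFAP2C, KRT8, KRT18, DAB2 and PTGS2 higher and ELF3 lower in blastocysts, and the median log2 change of the 10 genes was 2.85. Tests were edgeR quasi-likelihood tests, two-sided, with Benjamini-Hochberg adjustment over all genes, and a call is an adjusted p under 0.05. ELF3 was the gene not called in the transcriptome (log2 change 0.68, adjusted p = 0.282), and CDX2, GATA2 and TFAP2A were those not called on polysomes. The edgeR likelihood ratio test did call GATA2 on polysomes (adjusted p = 0.0480). With F9 and F10 alone as polysomes GATA2 (adjusted p = 0.0352) and TFAP2A (adjusted p = 0.0407) were called and GATA3 was not (adjusted p = 0.0922). For CDX2 the transcriptome call was lost without GV transcriptome C (adjusted p = 0.0523), and for GATA3 the polysome call was lost without GV polysome pool B (adjusted p = 0.0902).

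**Figure D1:**
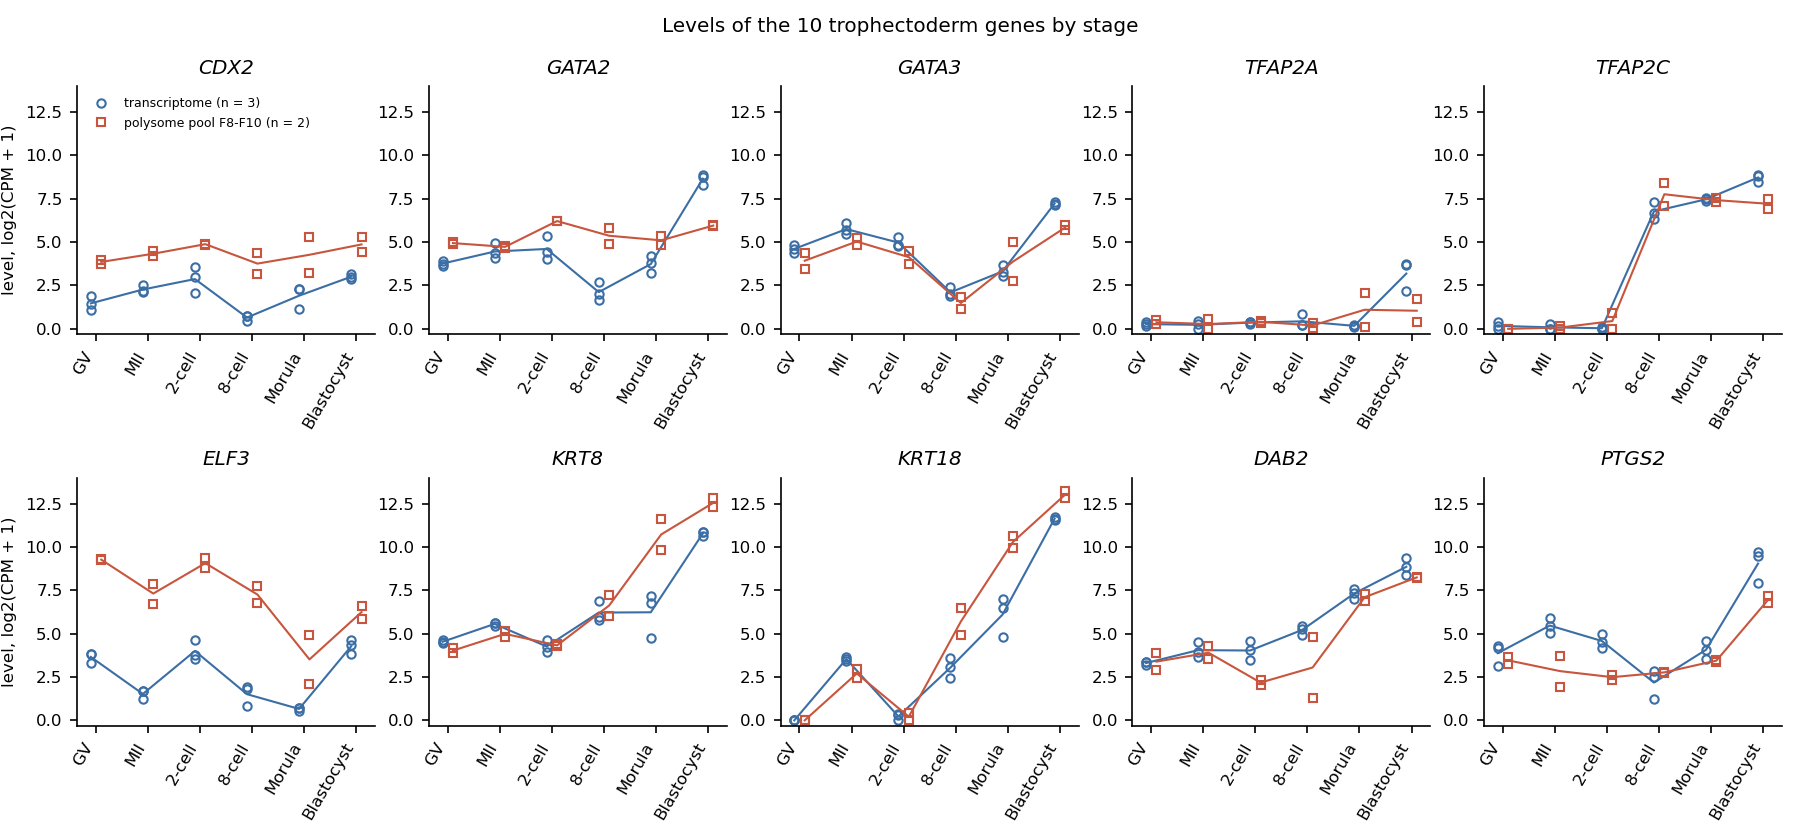
Each panel plots the level of 1 gene, as log2(CPM + 1), against stage; circles are the 3 transcriptomes and squares the 2 polysome pools (F8-F10) of a stage, and lines join the group means. KRT18 runs from 0 in GV transcriptomes to 3003 to 3386 CPM in blastocyst transcriptomes, while the ELF3 polysome pools start at 600.2 and 628 CPM and end at 96.9 and 57.4 CPM.

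CDX2, the homeobox factor that defines the trophectoderm in mouse, was a low transcript in whole oocytes and embryos at all 6 stages. Its transcriptome levels were 2.66, 1.74 and 1.12 CPM at GV, 3.55, 4.66 and 3.33 at MII, and 3.19, 7.03 and 10.6 at 2-cell. They were 0.685, 0.358 and 0.696 CPM at 8-cell, 4.01, 3.84 and 1.18 at morula, and 7.94, 6.21 and 7.0 at blastocyst. CDX2 fell from 2-cell to 8-cell (log2 change -3.56 ± 0.66 SE, adjusted p = 0.000105) and rose from 8-cell to morula (2.37 ± 0.65, adjusted p = 0.0141). The rise was not called without 8-cell transcriptome B or morula transcriptome A or B (adjusted p 0.0528 to 0.0672). All 3 blastocyst transcriptomes lay above all 3 morula ones, but that step was not called (1.22 ± 0.60, adjusted p = 0.151).

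On polysomes CDX2 lay at 14.5 and 12.5 CPM at GV, 21.4 and 17.1 at MII, 27.7 and 29.3 at 2-cell, 19.6 and 7.94 at 8-cell, 8.38 and 38.7 at morula, and 39.0 and 20.3 at blastocyst. No step between consecutive stages was called for CDX2 on polysomes, and its pools overlapped between 8-cell and morula and between morula and blastocyst. The 8-cell trough of the transcriptome was thus not called on polysomes, yet the difference between the 2 changes from 2-cell to 8-cell was not called either (2.51, adjusted p = 0.0842). That difference was called by the likelihood ratio test (adjusted p = 0.0489), by DESeq2 (2.47, adjusted p = 0.0369) and without 8-cell polysome pool B (3.02, adjusted p = 0.0199).

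GATA2 and GATA3, zinc finger factors that bind the same core motif, moved alike in the transcriptome. GATA2 stood at 12.5, 13.9 and 11.4 CPM at GV, 29.3, 19.9 and 15.7 at MII, 15.6, 20.5 and 39.4 at 2-cell, and 2.14, 2.96 and 5.57 at 8-cell. It stood at 13.2, 17.2 and 8.19 CPM at morula and at 315, 472 and 438 CPM at blastocyst. GATA2 therefore fell from 2-cell to 8-cell (-2.82 ± 0.41, adjusted p = 4.02e-06), rose to the morula (1.85 ± 0.40, adjusted p = 0.00229) and rose again to the blastocyst (4.99 ± 0.44, adjusted p = 3.18e-08), where its mean was 31.8 times that of morulae.

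GATA3 stood at 27.7, 23.4 and 19.8 CPM at GV, 51.4, 43.0 and 66.7 at MII, 26.9, 27.2 and 38.4 at 2-cell, and 2.74, 2.96 and 4.35 at 8-cell. It stood at 8.58, 11.6 and 7.11 CPM at morula and 141, 156 and 148 CPM at blastocyst. It fell from 2-cell to 8-cell (-3.20 ± 0.49, adjusted p = 9.88e-06), rose to the morula (1.44 ± 0.47, adjusted p = 0.0382) and rose to the blastocyst (4.03 ± 0.51, adjusted p = 3.75e-06). The rise to the morula was not called on leaving out any of the 6 transcriptomes concerned (adjusted p 0.0502 to 0.141), although no 8-cell library reached the lowest morula library.

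On polysomes the 2 GATA factors differed in which steps were called, and the difference between the genes was not tested. GATA2 pools lay at 28.2 and 31.4 CPM at GV, 24.8 and 26.2 at MII, 74.3 and 72.2 at 2-cell, 29.2 and 55.3 at 8-cell, 40.1 and 27.7 at morula, and 61.6 and 60.4 at blastocyst. The step from MII to 2-cell was the only one called for GATA2 on polysomes (1.52 ± 0.46, adjusted p = 0.0407), and it was lost on leaving out any of its 4 pools (adjusted p 0.118 to 0.161). Without 8-cell polysome pool B the GATA2 change from 2-cell to 8-cell was -1.32. GATA3 pools lay at 20.1 and 9.97 CPM at GV, 27.4 and 36.8 at MII, 21.8 and 12.5 at 2-cell, 1.19 and 2.60 at 8-cell, 5.64 and 31.5 at morula, and 50.8 and 61.9 at blastocyst. GATA3 on polysomes fell from 2-cell to 8-cell (-3.16 ± 0.60, adjusted p = 0.000170) and rose from 8-cell to morula (3.28 ± 0.60, adjusted p = 0.000234), as it did in the transcriptome. The further step to the blastocyst missed the threshold (1.60 ± 0.56, adjusted p = 0.0563) and was called without morula polysome pool B (3.32, adjusted p = 0.000670).

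The AP-2 factors differed in when they appeared. TFAP2C was near 0 in the transcriptome until the 2-cell stage, with 0.304, 0 and 0.101 CPM at GV, 0, 0.203 and 0 at MII, and 0.0761, 0 and 0 at 2-cell. It reached 78.2, 157 and 103 CPM at 8-cell, 165, 176 and 188 at morula, and 355, 451 and 468 at blastocyst. The 3 transcriptomes of 2-cell embryos held 1 count of TFAP2C in all and those of 8-cell embryos 3848, a rise with an adjusted p of 8.93e-09. Every blastocyst library lay above every morula library, but neither the step to the morula (0.64, adjusted p = 0.507) nor that to the blastocyst (1.27 ± 0.59, adjusted p = 0.130) was called.

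TFAP2C on polysomes held 0 counts in both GV pools, 0 and 0.107 CPM at MII and 0 and 0.861 CPM at 2-cell, then 137 and 339 CPM at 8-cell, 157 and 185 at morula, and 119.8 and 180.3 at blastocyst. The rise from 2-cell to 8-cell (9.11 ± 1.04, adjusted p = 3.58e-07) was the only called step, and the later pools overlapped. Blastocyst polysome pools were at least 3834-fold above GV pools, against a floor of 3 counts over the group's libraries together for a level of 0.

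TFAP2A, by contrast, was at most 0.783 CPM in the transcriptomes before the blastocyst. Its blastocyst transcriptomes held 3.53, 12.2 and 11.6 CPM, against 0.187, 0.0894 and 0.108 CPM at morula, and the rise was called (6.08 ± 1.47, adjusted p = 0.00357) on 129 against 4 counts. Its polysome pools were at 0.0964 and 3.19 CPM at morula and 0.305 and 2.26 CPM at blastocyst, so that the gradients of a stage differed more than the stages did. In blastocysts the free RNA of gradients A and B held at least 8.87 CPM of TFAP2A.

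ELF3, the ETS factor of epithelial cells, was high in the gradients from the oocyte on and low in the transcriptomes. Transcriptomes held 13.1, 13.1 and 9.02 CPM at GV, 2.18, 2.23 and 1.31 at MII, 12.8, 24.1 and 10.8 at 2-cell, 0.771, 2.78 and 2.44 at 8-cell, 0.467, 0.626 and 0.646 at morula, and 13.2, 23.6 and 19.4 at blastocyst. The level thus went down and up again: ELF3 fell from GV to MII (-2.61 ± 0.59, adjusted p = 0.00223), rose to the 2-cell stage (3.05 ± 0.59, adjusted p = 0.000908), fell to the 8-cell stage (-2.99 ± 0.58, adjusted p = 0.000166) and rose from morula to blastocyst (5.01 ± 0.68, adjusted p = 8.47e-06). All 3 blastocyst transcriptomes lay above all 3 GV ones, with a ratio of means of 1.60, but the difference was not called.

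On polysomes ELF3 was highest in GV oocytes and 2-cell embryos, whose pools overlapped. The pools held 600.2 and 628 CPM at GV, 235 and 106 at MII, 442 and 645 at 2-cell, 216 and 106 at 8-cell, 3.32 and 29.1 at morula, and 96.9 and 57.4 at blastocyst. It fell from 2-cell to 8-cell (-1.76 ± 0.64, adjusted p = 0.0282) and from 8-cell to morula (-3.30 ± 0.68, adjusted p = 0.000739) and rose to the blastocyst (2.24 ± 0.66, adjusted p = 0.0247). The fall to the 8-cell stage was lost without 2-cell or 8-cell polysome pool B (adjusted p 0.133 to 0.158), and the rise to the blastocyst without morula or blastocyst polysome pool A (adjusted p 0.118 to 0.120). Blastocyst pools remained below GV pools (-2.99 ± 0.67, adjusted p = 0.000672).

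Both keratins rose from 2-cell to 8-cell and from morula to blastocyst in the transcriptome, and KRT18 also between 8-cell and morula. KRT18 held 0 counts in all 3 GV transcriptomes and stood at 10.8, 11.6 and 9.52 CPM at MII, 0.228, 0 and 0.301 at 2-cell, 7.54, 11.3 and 4.35 at 8-cell, 88.1, 129 and 26.7 at morula, and 3003, 3386 and 3116 at blastocyst. Every step was called: from GV to MII at least 116-fold against a floor of 3 counts over the group's libraries together (adjusted p = 5.60e-06), to the 2-cell stage down (-5.84 ± 0.82, adjusted p = 5.08e-05), and then up to 8-cell (5.38 ± 0.82, adjusted p = 1.49e-05), morula (3.39 ± 0.60, adjusted p = 0.000565) and blastocyst (5.29 ± 0.65, adjusted p = 5.05e-06). From GV oocyte to blastocyst KRT18 was at least 34630-fold higher in the transcriptome and at least 212261-fold higher on polysomes, by the same floor.

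KRT8 was present throughout, at 20.7, 24.2 and 21.5 CPM in GV transcriptomes, 47.9, 43.2 and 47.4 in MII, 23.7, 14.2 and 17.6 in 2-cell, 115, 55.1 and 62 in 8-cell, 109, 143 and 25.6 in morula, and 1579.8, 1834 and 1854 in blastocyst transcriptomes. It rose from 2-cell to 8-cell (2.06 ± 0.47, adjusted p = 0.000766) and from morula to blastocyst (4.24 ± 0.51, adjusted p = 1.93e-06). Between 8-cell and morula its libraries overlapped (0.26, adjusted p = 0.755). KRT8 counts were not whole numbers in 110 of the 138 libraries, so reads were shared out between it and other sequences, and its levels are less certain than those of the other genes, where this held for 0 to 19 libraries. The cumulus and granulosa markers summed to 505 to 2465 CPM in 8-cell transcriptomes, highest in transcriptome A, where KRT8 was highest too, and the calls of KRT8 and KRT18 from 2-cell to 8-cell held without it.

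In morulae the polysome pools of both keratins lay above all 3 transcriptomes. KRT8 pools held 13.5 and 17.2 CPM at GV, 35.1 and 26.9 at MII, 18.2 and 19.8 at 2-cell, 62.7 and 151 at 8-cell, 910.3 and 3104 at morula, and 7148 and 4960.1 at blastocyst. KRT18 pools held 0 and 0, 4.36 and 6.90, 0 and 0.338, 87.7 and 29.4, 969 and 1601, and 9497 and 7118 CPM at the same 6 stages. KRT8 on polysomes rose from 2-cell to 8-cell (2.49 ± 0.58, adjusted p = 0.00121) and from 8-cell to morula (4.23 ± 0.62, adjusted p = 2.09e-05), and the step to the blastocyst missed the threshold (1.59 ± 0.56, adjusted p = 0.0563) and was called without morula polysome pool B (2.73, adjusted p = 0.00693). The rise of KRT8 from 8-cell to morula was larger on polysomes than in the transcriptome, by 3.97 ± 0.73 on the log2 scale (adjusted p = 0.000946). KRT18 on polysomes rose at each of these steps (8.42 ± 0.97, adjusted p = 7.95e-07, then 4.46 ± 0.76, adjusted p = 0.000162, then 2.69 ± 0.70, adjusted p = 0.0149), the last of which was lost without morula or blastocyst polysome pool A (adjusted p 0.0503 to 0.0651).

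DAB2, the adaptor, rose late and by smaller steps. Transcriptomes held 9.34, 9.33 and 8.01 CPM at GV, 14.2, 11.8 and 22.2 at MII, 10.3, 22.4 and 15.4 at 2-cell, 29.8, 41.7 and 37.8 at 8-cell, 162, 191 and 128 at morula, and 329.8, 643 and 464 at blastocyst. The steps from 8-cell to morula (2.14 ± 0.56, adjusted p = 0.0105) and from morula to blastocyst (1.58 ± 0.55, adjusted p = 0.0384) were called, and no libraries of consecutive stages overlapped from the 2-cell stage on. The former was lost without 8-cell transcriptome A (adjusted p = 0.0515), and the latter without any morula transcriptome or without blastocyst transcriptome B or C (adjusted p 0.0702 to 0.144).

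On polysomes DAB2 held 6.36 and 13.8 CPM at GV, 18.5 and 10.4 at MII, 3.95 and 3.14 at 2-cell, 1.48 and 26.5 at 8-cell, 117 and 157 at morula, and 295 and 308 at blastocyst. It rose from 8-cell to morula (3.29 ± 0.72, adjusted p = 0.00116), with all morula pools above all 8-cell pools. The 2 gradients of the 8-cell stage stood on either side of both 2-cell pools, so the called step from 2-cell to 8-cell (1.99 ± 0.69, adjusted p = 0.0213) rests on 8-cell polysome pool B, without which it was -1.26 (adjusted p = 0.0643). That call was also lost without 2-cell polysome pool A or B. Without 8-cell polysome pool B, DAB2 was also lower on 8-cell polysomes than in the transcriptome (-4.62, adjusted p = 2.02e-06), and its rise from 8-cell to morula was larger on polysomes by 4.40 (adjusted p = 4.77e-05). With both pools the main edgeR quasi-likelihood fit, with TMM factors and no replicate block, called neither. The lower level on 8-cell polysomes was called by the likelihood ratio test (adjusted p = 0.0486) and by DESeq2 (adjusted p = 0.0136). Quasi-likelihood fits with DESeq2 size factors (adjusted p = 0.0276) or with the replicate block (adjusted p = 0.0413) called it too.

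PTGS2, the inducible prostaglandin synthase, rose most at the blastocyst. Transcriptomes held 18.6, 7.79 and 17.2 CPM at GV, 41.7, 32.2 and 59.8 at MII, 22.2, 31.1 and 17.2 at 2-cell, 6.08, 1.34 and 4.61 at 8-cell, 22.9, 15.9 and 10.7 at morula, and 243, 835 and 711 at blastocyst. It fell from 2-cell to 8-cell (-2.55 ± 0.54, adjusted p = 0.000445), rose to the morula (2.04 ± 0.54, adjusted p = 0.0111) and rose to the blastocyst (5.18 ± 0.60, adjusted p = 1.33e-06). The rise to the morula was lost without 8-cell transcriptome B or morula transcriptome A (adjusted p 0.0589 to 0.0619). Blastocyst transcriptome A lay below the other 2 but above all earlier libraries.

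On polysomes PTGS2 held 8.68 and 11.5 CPM at GV, 2.85 and 12.3 at MII, 4.11 and 5.17 at 2-cell, 5.95 and 5.67 at 8-cell, 9.49 and 10.3 at morula, and 108 and 144 at blastocyst. The only called step was that to the blastocyst (3.67 ± 0.68, adjusted p = 0.00118), a mean 12.8 times that of morulae. From 2-cell to 8-cell the pools were not called (0.32, adjusted p = 0.711) where the transcriptome fell, and the difference between the 2 changes was called (2.87 ± 0.83, adjusted p = 0.0248). It was lost without 2-cell or 8-cell transcriptome B or without either 2-cell pool (adjusted p 0.0501 to 0.0980).

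Between consecutive stages, the number of the 10 genes that changed in the transcriptome was 3 on reaching MII, 2 on reaching 2-cell, 8 on reaching 8-cell, 6 at the morula and 8 at the blastocyst. The share of all genes called was 18.6%, 13.1%, 52.3%, 15.4% and 23.2% at the same steps. On polysomes the numbers were 1, 2, 6, 5 and 3, beside 5.43%, 8.65%, 47.3%, 37.0% and 14.2% of all genes. The 8 genes called at the 8-cell stage went opposite ways, with CDX2, GATA2, GATA3, ELF3 and PTGS2 lower and TFAP2C, KRT8 and KRT18 higher. At the later 2 steps every called change of the transcriptome was a rise, beside 7.39% and 10.8% of all genes that rose. The 10 oocyte marker genes, which include ZP2 and GDF9, summed to 20737 to 22641 CPM in 2-cell transcriptomes and 1464 to 2578 CPM in 8-cell transcriptomes, and their part in the falls at that step was not tested.

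The 3 genes that changed in the transcriptome at maturation were KRT18 and PTGS2, which rose, and ELF3, which fell. For PTGS2 the rise (1.61 ± 0.52, adjusted p = 0.0299) was lost without any GV transcriptome or without MII transcriptome A or C (adjusted p 0.0513 to 0.144). PTGS2 polysome pools overlapped between GV and MII, while KRT18 rose there too, at least 144-fold by the floor (adjusted p = 0.000300). Some genes of the surrounding cumulus cells moved at the same step. TNFAIP6, a hyaluronan-linking protein of the expanded cumulus, stood at 0 to 0.152 CPM in GV, 82.0 to 147 CPM in MII and 0.15 to 0.160 CPM in 2-cell transcriptomes. HAS2, the cumulus hyaluronan synthase, stood at 27.3 to 37.7 CPM in GV and 169 to 187 CPM in MII transcriptomes. The summed level of the 18 cumulus and granulosa markers was 636 to 787 CPM in GV, 802 to 1209 CPM in MII and 516 to 543 CPM in 2-cell transcriptomes, with 5 of the 17 tested higher and 1 lower in MII beside 18.6% of all genes called, and 1 of the 18 at 0 in all MII transcriptomes. On polysomes the summed level of these markers was 1066 and 1138 CPM at GV and 784 and 1531 CPM at MII, so the pools overlapped. The part of these markers in the KRT18 and PTGS2 results was not tested.

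The step from morula to blastocyst is where the trophectoderm forms, and 8 of the 10 genes rose there in the transcriptome and 3 on polysomes, beside 23.2% and 14.2% of all genes called. The median log2 change was 4.62 for the 10 genes, against -0.01 for all genes. The 3 on polysomes were ELF3, KRT18 and PTGS2, and the median there was 1.36 against -0.02 for all genes. The likelihood ratio test and DESeq2 each called 5 on polysomes, beside 3034 and 2928 of all 14612 genes. Both added GATA3 (adjusted p = 0.0300 and 0.00816) and KRT8 (adjusted p = 0.0297 and 0.0139). Mean levels rose 39.1 times for KRT18, 36.2 times for PTGS2, 32.4 times for ELF3 and 19.0 times for KRT8 in the transcriptome, beside 6.46, 12.8, 4.76 and 3.02 times in the polysome pools.

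The difference itself, polysome change less transcriptome change, was called for 5 of the 10 genes at this step, all with a smaller polysome change, beside 12.3% of all genes called in either direction. GATA2 stood above all 3 transcriptomes in all 8 gradient pools of morulae and below them in all 8 of blastocysts. Its turn was thus shared by every part of the gradient and not particular to polysomes. For GATA2 the difference was -4.14 ± 0.61 (adjusted p = 0.000218), and this call held on leaving out any library. For KRT8 it was -2.65 ± 0.72 (adjusted p = 0.0179), but this call was lost without morula or blastocyst polysome pool B (adjusted p 0.0901 to 0.139). For GATA3 (-2.43 ± 0.72, adjusted p = 0.0291), TFAP2A (-6.45 ± 2.03, adjusted p = 0.0384) and ELF3 (-2.76 ± 0.91, adjusted p = 0.0469) the call was lost on leaving out any of 7, 8 and 9 of the 10 libraries concerned. Without morula polysome pool B, which was the higher of the 2 morula pools for these 3 genes, the differences were -0.71, -2.44 and -0.47 (adjusted p = 0.492, 0.503 and 0.779). KRT18 had a difference of similar size that missed the threshold (-2.59 ± 0.87, adjusted p = 0.0539) and passed it without morula transcriptome B or morula polysome pool A. With F9 and F10 alone as polysomes, the differences of GATA3, TFAP2A and ELF3 were not called (adjusted p = 0.181, 0.644 and 0.0802).

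Differences called at the other steps were fewer. From 2-cell to 8-cell they were GATA2 and PTGS2, 2 of 10 beside 12.2% of all genes, and GATA2 fell less on polysomes than in the transcriptome (2.03 ± 0.60, adjusted p = 0.0282). From 8-cell to morula they were GATA2 and KRT8, 2 of 10 beside 12.5% of all genes, and GATA2 went the other way (-2.17 ± 0.60, adjusted p = 0.0196). With F9 and F10 alone as polysomes, the calls of GATA2 at both steps (adjusted p = 0.0812 and 0.0942) and of PTGS2 (adjusted p = 0.274) were lost. For GATA2 the former was lost without 2-cell transcriptome C, 8-cell transcriptome A or B, either 2-cell pool or 8-cell pool B, and the latter without 8-cell transcriptome A, morula transcriptome B or 8-cell pool B (adjusted p 0.0513 to 0.0943 in all). The KRT18 difference from 2-cell to 8-cell was called by the likelihood ratio test (adjusted p = 0.0398) and DESeq2 (adjusted p = 0.0487). With F9 and F10 alone as polysomes KRT18 was called there too (adjusted p = 0.0156). From 8-cell to morula the likelihood ratio test also called TFAP2A (adjusted p = 0.0498), and DESeq2 also called GATA3 (adjusted p = 0.0432). From GV to MII and from MII to 2-cell none of the 10 was called by the edgeR quasi-likelihood test, beside 10.6% and 1.81% of all genes. At an unadjusted p under 0.05 there were 1 and 2 genes at those steps, the edgeR likelihood ratio test called 0 and 0, and DESeq2 called 1 and 0. Among all 14612 genes the numbers were 3461 and 2103 unadjusted, 2186 and 690 by the likelihood ratio test, and 2357 and 841 by DESeq2.

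**Figure D2:**
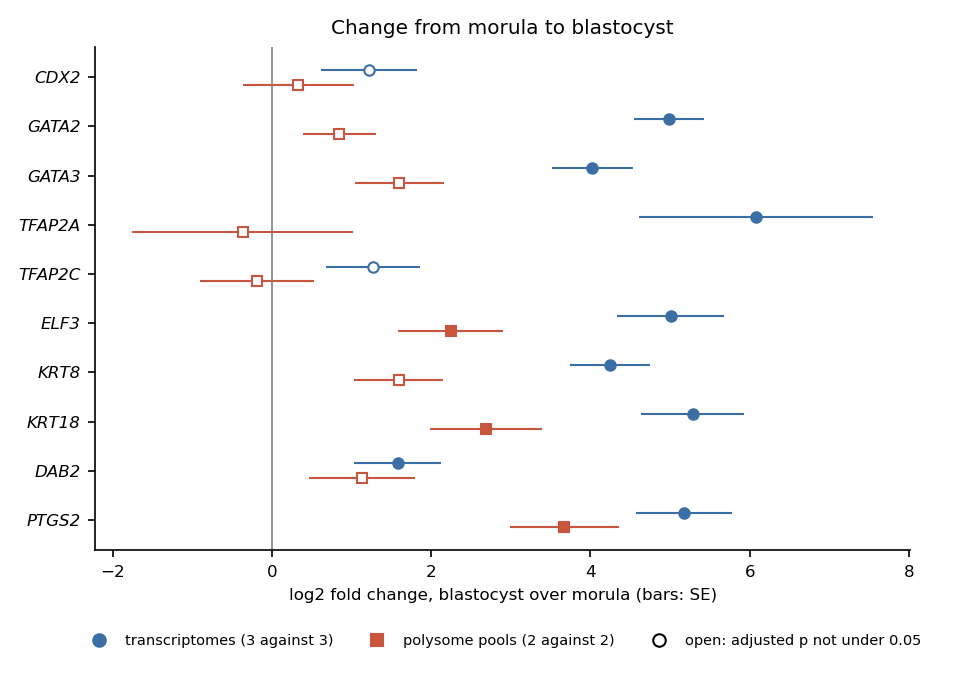
Points are log2 fold changes from morula to blastocyst, with bars of 1 SE, in the transcriptomes (circles, 3 against 3) and polysome pools (squares, 2 against 2); open symbols have an adjusted p of 0.05 or more. All 10 transcriptome changes lie to the right of 0, and GATA2 has the widest gap for its error, 4.99 in the transcriptome and 0.85 on polysomes.

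Within a stage, each gene was compared between polysome pools and transcriptomes. The number of the 10 genes that differed was 3 at GV, 3 at MII, 6 at 2-cell, 4 at 8-cell, 6 at morula and 6 at blastocyst, beside 39.8%, 57.5%, 51.0%, 59.1%, 51.7% and 40.1% of all genes, so that the count alone does not set the 10 genes apart. CDX2 and ELF3 were higher in the polysome pools at all 6 stages. For ELF3 the log2 difference was 5.71 ± 0.64 at GV (adjusted p = 1.79e-07), 6.47 ± 0.68 at MII (adjusted p = 2.10e-08) and 2.04 ± 0.58 at blastocyst (adjusted p = 0.00693). For CDX2 it ranged from 2.04 at 2-cell (adjusted p = 0.0102) to 4.55 at 8-cell (adjusted p = 1.03e-05). Calls were lost for CDX2 without 2-cell transcriptome A (adjusted p = 0.0551), morula polysome pool B (0.0789) or blastocyst polysome pool A (0.127), and for ELF3 without blastocyst polysome pool A (0.0751). With F9 and F10 alone as polysomes, the CDX2 call was lost in MII oocytes, 2-cell embryos, morulae and blastocysts (adjusted p = 0.143, 0.153, 0.0624 and 0.101), while the differences were 1.73, 1.72, 2.26 and 2.10.

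GATA2 changed sides. It was higher on polysomes in GV oocytes (1.24 ± 0.41, adjusted p = 0.0192), 2-cell embryos (1.54, adjusted p = 0.00313), 8-cell embryos (3.57, adjusted p = 3.22e-07) and morulae (1.40, adjusted p = 0.00695), and lower in blastocysts (-2.74 ± 0.46, adjusted p = 5.15e-05). The GV call was lost without GV transcriptome C or either GV pool, and the morula call without morula pool A (adjusted p 0.0511 to 0.0941 in all). In blastocysts GATA3 (-1.40 ± 0.52, adjusted p = 0.0357) and PTGS2 (-2.24 ± 0.61, adjusted p = 0.00523) were lower on polysomes too, and KRT8 was higher (1.79 ± 0.49, adjusted p = 0.00563). The GATA3 call was lost without any of the 5 blastocyst libraries (adjusted p 0.0563 to 0.163), and those of PTGS2 and KRT8 without blastocyst polysome pool A (adjusted p = 0.0591 and 0.0571). With F9 and F10 alone as polysomes the calls of GATA2 in GV oocytes (adjusted p = 0.0925) and of GATA3 in blastocysts (adjusted p = 0.165) were lost. The blastocyst KRT18 pools lay above all blastocyst transcriptomes, but the difference was not called (1.39 ± 0.59, adjusted p = 0.0668). It was called by the likelihood ratio test (adjusted p = 0.0378) and with F9 and F10 alone as polysomes (1.56, adjusted p = 0.0429).

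The keratins were higher on polysomes in morulae as well, KRT8 by 4.44 ± 0.53 (adjusted p = 3.80e-07) and KRT18 by 3.98 ± 0.63 (adjusted p = 2.54e-05), and KRT18 was already higher in 8-cell embryos (2.92, adjusted p = 0.000463). PTGS2 was lower on polysomes in MII oocytes (-2.56 ± 0.63, adjusted p = 0.00126) and 2-cell embryos (-2.34, adjusted p = 0.00300, or 0.0655 with F9 and F10 alone as polysomes), and DAB2 at 2-cell (-2.17, adjusted p = 0.00844), a call lost without 2-cell polysome pool B (adjusted p = 0.0733). A further 2 calls rest on 1 gradient each: TFAP2C in 2-cell embryos (adjusted p = 0.0318), where polysome pool B holds its 28 counts, and TFAP2A in morulae (3.62, adjusted p = 0.0351). Without that pool B both calls were lost. TFAP2C then held 0 counts on 2-cell polysomes, so no fold is given, and the value for TFAP2A was -0.39. The TFAP2C call was also lost without 2-cell transcriptome B or C, and the TFAP2A call without any morula transcriptome.

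**Figure D3:**
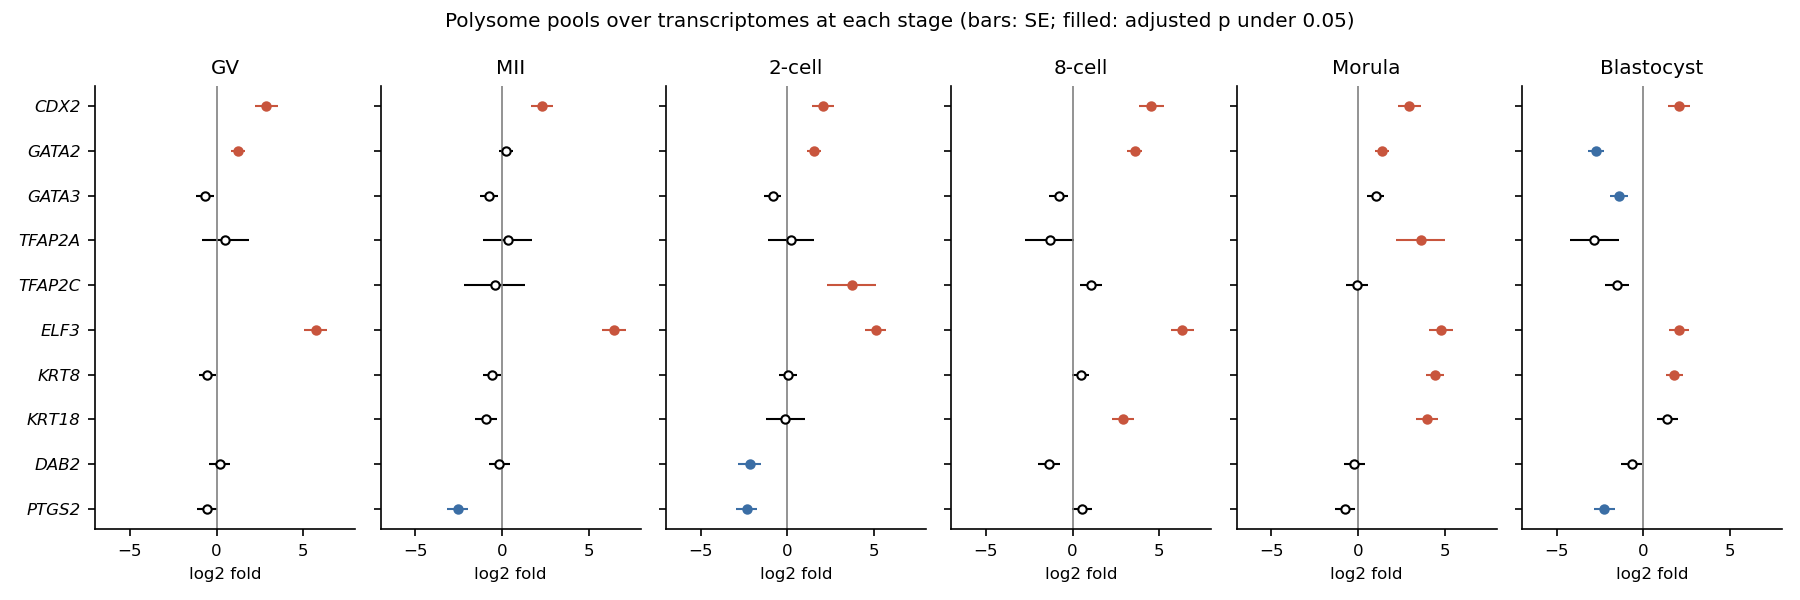
Points are log2 differences of polysome pools (n = 2) over transcriptomes (n = 3) at each stage, with bars of 1 SE; filled points have an adjusted p under 0.05, red higher and blue lower on polysomes, and no point is drawn for TFAP2C and KRT18 at GV, whose polysome pools held 0 counts. CDX2 and ELF3 lie to the right of 0 at all 6 stages, and GATA2 moves from 3.57 at 8-cell to -2.74 at blastocyst.

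A higher level in polysome pools than in transcriptomes was not always a feature of the polysomes. For ELF3 all 8 gradient pools, free RNA and monosomes included, lay above all 3 transcriptomes in GV, MII, 2-cell and 8-cell material. In GV oocytes, for instance, ELF3 held 1048 and 1451 CPM in free RNA, 1648 and 1015 in monosomes and 1612 and 1142 in the intermediate class, against at most 13.1 in a transcriptome. The same held for CDX2 in GV, MII, 2-cell, morula and blastocyst material, for GATA2 in GV, 8-cell and morula material, for KRT18 at morula and for KRT8 at blastocyst. Such genes made up 27.9%, 30.1%, 28.9%, 15.6%, 12.6% and 9.28% of all genes at the 6 stages in order. The reverse, all 8 gradient pools below all 3 transcriptomes, held for KRT18 and PTGS2 at MII, GATA3 at 2-cell, and GATA2 and PTGS2 at blastocyst, beside 27.6%, 23.3% and 14.2% of all genes. For these genes and stages the difference from the transcriptome was therefore shared by every part of the gradient.

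**Figure D4:**
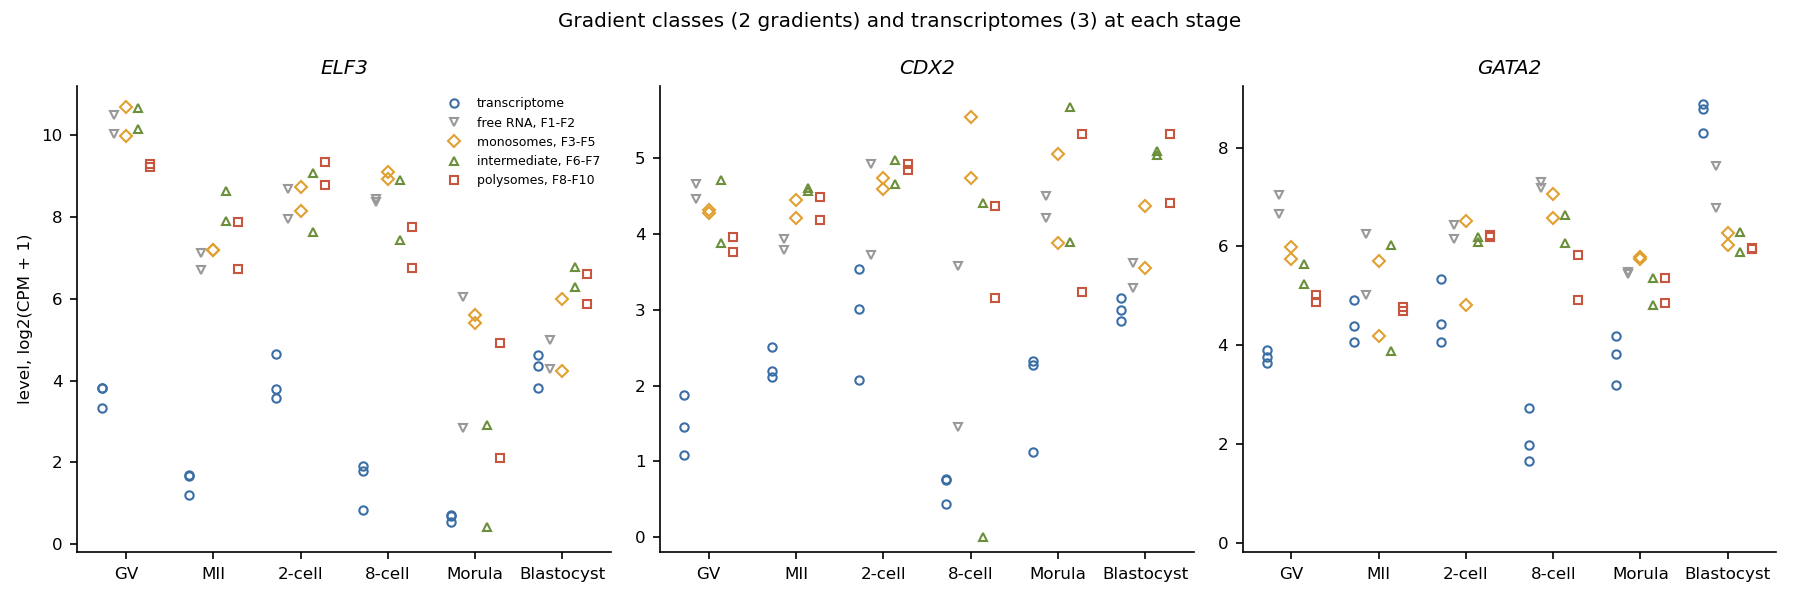
Levels of ELF3, CDX2 and GATA2, as log2(CPM + 1), in the 3 transcriptomes and in the free RNA, monosome, intermediate and polysome pools of the 2 gradients at each stage. ELF3 pools of all 4 classes lie above the transcriptomes from GV to 8-cell, and blastocyst GATA2 transcriptomes (315 to 472 CPM) lie above every blastocyst pool.

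Place within the gradient was tested by comparing polysome with monosome pools in 1 fit of 24 pools. In GV, MII and 2-cell material and in blastocysts none of the 10 genes was called by the edgeR quasi-likelihood test, beside 0.444%, 0.424%, 0.0% and 1.29% of all genes (in 2-cell embryos 0 of 14873, with 928 at an unadjusted p under 0.05). At an unadjusted p under 0.05 none of the 10 genes passed, and neither the edgeR likelihood ratio test nor DESeq2 called any. Among all 14873 genes, 1360, 1379, 928 and 2306 passed unadjusted at these stages in order. The likelihood ratio test called 236, 255, 22 and 1116 of them, and DESeq2 603, 605, 196 and 1448. In 8-cell embryos GATA3 was lower on polysomes than on monosomes (1.19 and 2.60 against 12.5 and 9.97 CPM, log2 difference -2.56 ± 0.77, adjusted p = 0.0451), 1 of 10 beside 9.41% of all genes. There 5 of the 10 passed at an unadjusted p under 0.05, beside 4270 of all genes. DESeq2 also called GATA2 lower on 8-cell polysomes (-1.58, adjusted p = 0.0212). KRT8 was called higher there by DESeq2 (1.92, adjusted p = 0.0353) and the likelihood ratio test (2.08, adjusted p = 0.0280). These 2 tests called 3662 and 3181 of all genes. In morulae KRT8 was higher on polysomes (910.3 and 3104 against 159 and 308 CPM, 3.1 ± 0.74, adjusted p = 0.0475), 1 of 10 beside 1.47% of all genes. The GATA3 call was lost without 8-cell polysome pool A or either monosome pool (adjusted p 0.0847 to 0.185), and the KRT8 call without morula polysome pool B or monosome pool A (adjusted p 0.143 to 0.148). Both were lost with F9 and F10 alone as polysomes (adjusted p = 0.126 and 0.0652). The polysome and monosome pools of a letter come from 1 gradient, and with the gradient as a block GATA3 was not called in 8-cell embryos (adjusted p = 0.0752) while KRT8 was (2.59, adjusted p = 0.0169). On leaving out 1 pool, calls were gained in 8-cell embryos for KRT8 (4.21, adjusted p = 0.0120), KRT18 (adjusted p = 0.0100) and PTGS2 (adjusted p = 0.00565) without monosome pool B, all higher on polysomes. They were gained for DAB2 in 8-cell embryos (-2.28, adjusted p = 0.0368) and for ELF3 in morulae (-3.74, adjusted p = 0.0188) without polysome pool B, both lower on polysomes. No fold is given for KRT18 and PTGS2, whose remaining monosome pool stood at 0.0338 and 0 CPM.

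With the 4 pools of a stage fitted alone, a setting chosen after the data were seen, 2 other genes were called in GV oocytes and 1 at blastocyst, and none at the other stages. They were ELF3 (-1.12, adjusted p = 0.0223) and KRT8 (-1.28, adjusted p = 0.0276), lower on GV polysomes than on GV monosomes, and KRT18 (2.11, adjusted p = 0.00753), higher on blastocyst polysomes. Among all genes this setting called 2760 in GV oocytes, 1810 of them lower on polysomes, and 141 at blastocyst, 90 of them higher. It called 359 in MII oocytes, 400 in 8-cell embryos and none in 2-cell embryos or morulae. The GV calls alone therefore do not set ELF3 and KRT8 apart. In the fit of 24 pools KRT18 had the same difference with an adjusted p of 0.462.

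Fraction by fraction, the 2 keratins rose towards the bottom of the blastocyst gradients. KRT18 stood at 1443 and 1191 CPM in F3, 3525 and 3051 in F7, and 10912 and 8893 in F10 of gradients A and B, and KRT8 at 2132 and 1559 in F3 and 8630.2 and 6178 in F10. In gradient B, F1 was high for both as well, at 5813 CPM for KRT18 and 8406 CPM for KRT8. TFAP2C ran the other way, from 713 and 2748 CPM in F1 to 76.6 and 157 CPM in F10, and GATA2 stood at 91.6 and 201 CPM in F1 and 47.1 and 46.8 CPM in F10. DAB2 showed no such slope, at 194 and 262 CPM in F1 and 186 and 219 CPM in F10. These per-fraction levels are a description of 2 gradients and were not tested.

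**Figure D5:**
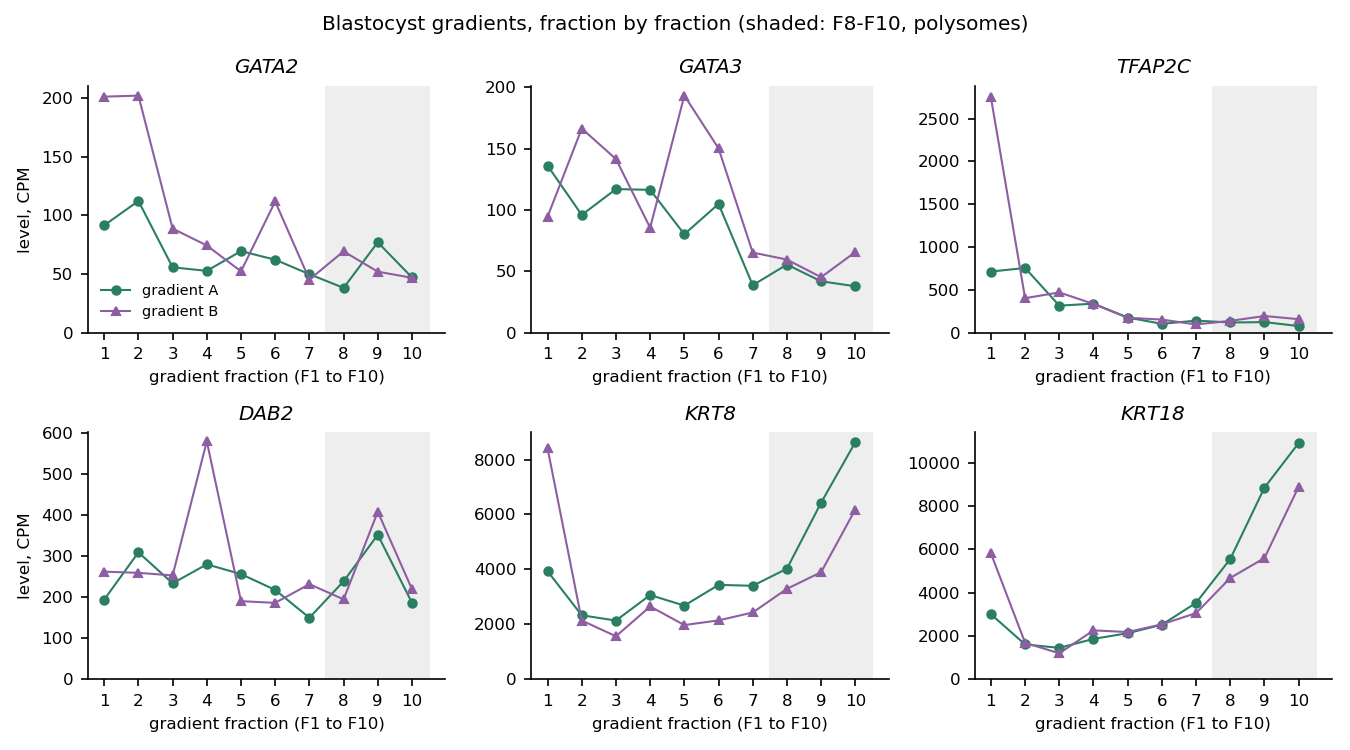
Levels in CPM of 6 genes across fractions F1 (top of the gradient) to F10 (bottom) of the 2 blastocyst gradients, with the polysome fractions shaded; each panel has its own linear axis from 0. KRT8 and KRT18 climb through the shaded fractions to their highest level of gradient A in F10, while TFAP2C is highest in F1 or F2.

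Other genes of the same pathways, taken from lists, were read beside the 10 genes at the step to the blastocyst. Of 25 other trophectoderm and trophoblast transcription factors, 4 rose and 1 fell in the transcriptome from morula to blastocyst, with a median log2 change of 1.04, and 3 rose and 2 fell on polysomes. Those with the largest called changes were ARID3A, from a mean of 1.68 to 43.5 CPM (4.69 ± 0.92, adjusted p = 0.000799), OVOL1 (3.77, adjusted p = 0.00277) and GRHL1 (3.26, adjusted p = 0.0131). Of 24 tested keratins and junction genes, 5 rose and 1 fell, with a median of 1.0, and 2 rose and 0 fell on polysomes. KRT19, another keratin of simple epithelia, rose from 8.41 to 139 CPM in the transcriptome (4.05 ± 0.34, adjusted p = 1.72e-08) and from 152 to 1177 CPM on polysomes (2.96, adjusted p = 5.23e-05), and the junction protein gene JUP rose in the transcriptome (3.69, adjusted p = 0.0109). At the step before, from 8-cell to morula, 10 of the 24 rose and none fell in the transcriptome, and 11 rose and 2 fell on polysomes, beside 15.4% and 37.0% of all genes called.

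Of 14 tested genes of the prostaglandin pathway, 1 rose and none fell in the transcriptome from morula to blastocyst, and the median change was 0.10. It was PTGES2, a prostaglandin E synthase (1.22 ± 0.31, adjusted p = 0.00538). Of 10 tested ruminant trophoblast products, 3 rose and none fell: PAG2, a pregnancy-associated glycoprotein (5.18 ± 1.43, adjusted p = 0.0139), IFNT, the interferon that signals pregnancy in cattle (3.49 ± 1.21, adjusted p = 0.0468), and PLAC8 (1.49 ± 0.46, adjusted p = 0.0202). PAG2 (5.53, adjusted p = 0.0432) and PLAC8 (1.96, adjusted p = 0.0241) rose on polysomes too. Of 15 endocytic adaptors and partners of DAB2, 1 rose and 1 fell, with a median change of -0.49 over the list. The clathrin adaptor subunit gene AP2M1 fell (-2.67, adjusted p = 1.54e-06). AP2M1 on polysomes was 493 and 395 CPM in mean (-0.32, adjusted p = 0.625). The shares of all genes called, 23.2% in the transcriptome and 14.2% on polysomes, are the background for the list counts from morula to blastocyst.

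Markers of the other blastocyst lineages were read at the same step. Of 9 tested inner cell mass and epiblast genes, none rose and 3 fell in the transcriptome from morula to blastocyst. POU5F1 stood at 301 to 431 CPM in morula and 133 to 148 CPM in blastocyst transcriptomes, and NANOG at 45.1 to 75.9 and 11.8 to 46.4 CPM. Of 10 hypoblast genes, 1 rose and none fell, and their summed level was 137 to 160 CPM in morula and 195 to 312 CPM in blastocyst transcriptomes.

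Over the 30 libraries, transcriptomes and polysome pools together, the 10 genes did not follow 1 profile. Pearson's r of log2(CPM + 1) was 0.960 between KRT8 and KRT18, 0.843 between KRT18 and DAB2, 0.796 between GATA3 and PTGS2 and 0.764 between CDX2 and ELF3, and lowest, at -0.367, between ELF3 and DAB2. Among all other genes, the highest r was with LPCAT4 for CDX2 (0.944), CMIP for GATA2 (0.880), PACSIN2 for GATA3 (0.837), SEC14L4 for TFAP2A (0.965), URGCP for TFAP2C (0.981), B3GNT3 for ELF3 (0.955), WNT6 for KRT8 (0.953), FXYD4 for KRT18 (0.953), FN1 for DAB2 (0.955) and SELENOP for PTGS2 (0.872). The 30 points share stages and batches, so these values describe likeness of profile and carry no p. With 0.1 in place of 1 added to CPM, the gene most alike changed for 4 of the 10 genes. KRT18 and KRT8 are neighbours in the RefSeq annotation of the ARS-UCD2.0 assembly, as are DAB2 and the prostaglandin receptor gene PTGER4, and PTGS2 and the phospholipase gene PLA2G4A.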

How the data were processed

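The authors made all libraries with a Smart-seq kit and Nextera XT, estimated counts per gene with Salmon and deposited 1 table of expected counts, not normalized, for 16706 gene symbols and 138 libraries. The annotation build is ARS-UCD1.2 in the study's methods and UMD3.1 in the submitters' processing notes, so no coordinates are given. The Salmon version was not given in the sources used here. In all, 11.7% of values are not whole, and counts were rounded for the tests. Stage, fraction and replicate letter were read from the column names, and 0 columns were left unmapped. No 2 libraries of a group held identical values in 78 pairs compared.

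Counts of F8-F10 and of F3-F5 were summed per gradient. The 12 polysome pools and 18 transcriptomes entered 1 edgeR quasi-likelihood fit with TMM factors (R 4.3.3, edgeR 4.0.16, limma 3.58.1), which kept 14612 genes after filterByExpr. The 12 polysome and 12 monosome pools entered another, with 14873 genes. Tests were two-sided, with Benjamini-Hochberg adjustment over all genes and a threshold of 0.05, and were tested on simulated data. The SE is the size of the log2 change divided by the root of the F statistic. A level of 0 was given a floor of 3 counts over all libraries of the group together, which covers counting error only. Tables were made with Python 3.11.15, numpy 2.4.6, pandas 2.3.3 and matplotlib 3.10.9.

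The 10 genes and all gene lists were chosen with earlier results of these data known. Beyond the 10 genes, up to 3 genes of a list were named, those with the largest called and non-overlapping change of the transcriptome from morula to blastocyst, and markers and genes most alike in profile were named as described. Some genes that this rule would name are not reported here. Alternatives were DESeq2 1.42.0 and its size factors, the likelihood ratio test used by the study, no filter, F9-F10 as polysomes, a replicate block, CPM without TMM factors, a pseudocount of 0.1 and leaving out each library. Comparisons of neighbouring steps, and the within-stage comparisons, share libraries. Sequences of the transcripts and the reads were not analysed here.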

Additional observations from a re-analysis of the deposited data

Results flagged for a closer look

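In 9 cases a gene's change between consecutive stages differed between polysome pools and transcriptomes by the interaction test (edgeR quasi-likelihood, 2 polysome pools and 3 transcriptomes per stage), given as polysome change less transcriptome change on the log2 scale. From 2-cell to 8-cell the difference was 2.03 for GATA2 (adjusted p = 0.0282) and 2.87 for PTGS2 (adjusted p = 0.0248). From 8-cell to morula it was -2.17 for GATA2 (adjusted p = 0.0196) and 3.97 for KRT8 (adjusted p = 0.000946). From morula to blastocyst it was -4.14 for GATA2 (adjusted p = 0.000218), -2.43 for GATA3 (adjusted p = 0.0291), -6.45 for TFAP2A (adjusted p = 0.0384), -2.76 for ELF3 (adjusted p = 0.0469) and -2.65 for KRT8 (adjusted p = 0.0179). Of these 9, the differences of GATA2 from morula to blastocyst and of KRT8 from 8-cell to morula were called on leaving out any library. For GATA2 all 8 gradient pools, and not polysomes alone, lay above the transcriptomes in morulae and below them in blastocysts.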

How the results depend on the processing

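Counted over the 10 genes, the called changes numbered 27 in the transcriptome steps, 17 in the polysome steps, 9 in the differences between them, 28 in polysomes against transcriptome, 16 in blastocyst against GV oocyte and 2 in polysomes against monosomes. The calls of differences moved to 14 with DESeq2 and to 4 with F9 and F10 as polysomes, and to between 5 and 11 on leaving out 1 library (5 without blastocyst polysome pool B). The calls of polysomes against monosomes moved to 1 with DESeq2 size factors, 1 with no filter on low counts, 4 with DESeq2 and 0 with F9 and F10 as polysomes, to between 1 and 4 on leaving out 1 library (1 without 8-cell polysome pool A, 8-cell monosome pool A or morula monosome pool A, 4 without 8-cell monosome pool B), and to 3 with the pools of a stage alone, which was chosen after the data were seen. The likelihood ratio test gave 30, 22, 13, 31, 17 and 3 calls in the same order. Directions turned with F9 and F10 as polysomes for TFAP2A against the transcriptome in MII oocytes (-4.48) and in morulae (-0.557). On leaving out 1 library the log2 value ran from -1.26 to 2.90 for the DAB2 polysome step from 2-cell to 8-cell, from -2.44 to 1.72 for its difference from the transcriptome step, and from -2.28 to 1.89 for DAB2 on polysomes against monosomes in 8-cell embryos, each lowest without 8-cell polysome pool B. It ran from -2.20 to 5.97 for TFAP2C on 2-cell polysomes against the transcriptome and from -0.386 to 4.57 for TFAP2A in morulae, each lowest without polysome pool B of that stage. Of 1640 values with 1 library left out, 101 lost a call, 23 gained one and 5 turned. The cause of these changes was not tested, other than that fewer libraries or fractions entered.

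With the replicate letter as a block the calls numbered 27, 16, 7, 28, 16 and 2, and the last 2 were KRT8 in 8-cell embryos and morulae, since GATA3 was lost. Letters were not taken to pair transcriptomes with gradients, since deviations of transcriptome and polysome pool of 1 letter correlated at -0.0688 to 0.0355. Polysome and monosome pools of 1 letter share a gradient and correlated at -0.0765 to 0.165. DESeq2 size factors moved the median change of all genes by -0.240 to 0.157 and turned the direction of no gene of the 10. With 2 gradients per stage, 1 pool decides many polysome values, and TFAP2A and early TFAP2C rest on few counts.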

Other observations

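Ruminant trophoblast products, proteins that the trophectoderm and its descendants secrete, moved before the blastocyst as well. From 8-cell to morula 3 of the 10 tested rose and 1 fell in the transcriptome, and 6 rose and 1 fell on polysomes, beside 15.4% and 37.0% of all genes called. Their summed level was 251 to 342 CPM in GV transcriptomes, 451 to 510 CPM in MII, 129 to 184 CPM in 2-cell and 58.3 to 96.0 CPM in 8-cell transcriptomes, 1183 to 1409 CPM in morula transcriptomes and 2145 to 2972 CPM in blastocyst transcriptomes. On polysomes it was 133 and 151 CPM at GV, 188 and 215 CPM at MII, 110.2 and 140.3 CPM at 2-cell, 8.29 and 39.4 CPM at 8-cell, 1193 and 1563 CPM at morula and 2948 and 3065 CPM at blastocyst, and no pools of consecutive stages from 8-cell on overlapped. For the 25 other transcription factors of trophectoderm and trophoblast, the summed level on polysomes was 236 and 298 CPM at MII, 337 and 381 CPM at 2-cell and 1920 and 2045 CPM at 8-cell, and in transcriptomes 433 to 554 CPM at MII, 241 to 261 CPM at 2-cell and 464 to 549 CPM at 8-cell. These sums are a description and were not tested.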
